A study of Mus musculus with 2 samples.

Results

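The S100 genes encode small calcium-binding proteins, and 8 of them (S100a1, S100a4, S100a6, S100a8, S100a9, S100a10, S100a11 and S100a13) were followed in colonies grown from mouse bone marrow cells that carried 1 of 2 forms of EVI1. The genes were taken by name and found by their Ensembl identifiers in the table of read counts, which lists 55487 gene IDs, and all 8 were present. EVI1 is a zinc finger transcription factor of the Mecom locus that is overexpressed in a class of aggressive leukaemias. The EVI1+18 library came from cells transduced with the retroviral vector pMYs-IG for the 3xHA-tagged form, which the series describes as a form made by abnormal splicing. The EVI1-WT library came from cells transduced with the same vector for 3xHA-tagged EVI1-WT. The series asks how transcription differs between cells that express these forms.

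Both cultures began as lineage-negative marrow of C57BL/6 mice, were sorted for the green fluorescence of the vector 3 days after infection, and grew at 10000 cells in the methylcellulose medium MethoCult M3434 for about 3 weeks. The labels give no age, sex or number of animals, and expression was a stable retroviral overexpression in whatever cells the vector entered. With 1 library for each form there is no replicate check on any difference, and no test was made. The EVI1+18 library held 20981903 counts and the EVI1-WT library 20480447. Mecom itself had 4481 counts in EVI1+18 and 3612 in EVI1-WT. Whether the vector's sequence is human or murine is not stated in the labels, and reads of the cells' own Mecom are not told apart. These counts therefore check neither the level of the vector's gene nor its splice form. Cells without the vector were not analysed here. The colonies were no longer plain progenitors, since haemoglobin, mast cell and granule genes were all present, as given with the cell type markers.

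S100 proteins carry a pair of EF-hand calcium-binding loops and work mostly as dimers. Calcium exposes a surface on the dimer that grips a target protein. S100A8 and S100A9 form the heterodimer calprotectin, a main cytoplasmic protein of neutrophils and a feature of monocytes, which binds zinc and manganese and signals to other cells once released. S100A10 is unusual because it has lost calcium binding and instead holds annexin A2 at the membrane, and S100A6 and S100A11 also bind annexins.

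The genes of the family lie side by side, and DNA is shown here for a pair with nearly the same ratio between the libraries and for a pair of neighbours that differed in direction. All 8 members are on mouse chromosome 3 (GRCm38), within 3054 kb. S100a1 to S100a9 fit into 185 kb, and S100a11 and S100a10 follow 2.82 Mb further on. RefSeq windows of GRCm38.p6, from 250 bases before to 50 bases after a gene's start, were at hand for 7 members (not S100a10). The first sequences below are the 250 bases before the RefSeq starts of S100a8 (chr3:90668821-90669070, plus strand) and S100a9 (chr3:90695722-90695971, minus strand), shown because these genes had nearly the same ratio between the libraries. The last is the stretch of 42 bases that separates the annotated bodies of S100a1 and S100a13 (chr3:90514393-90514434, plus strand), shown because these neighbours differed in direction. Each is written 5′ to 3′, and capitals mark matches on either strand, searched in the S100a8 and S100a9 sequences only. The C/EBP core was taken as TTGCNNAA. The core of PU.1, a factor of the ETS family, was taken as GAGGAA. The letters of the TATA box, where transcription machinery can settle, were TATAAA.
S100a8: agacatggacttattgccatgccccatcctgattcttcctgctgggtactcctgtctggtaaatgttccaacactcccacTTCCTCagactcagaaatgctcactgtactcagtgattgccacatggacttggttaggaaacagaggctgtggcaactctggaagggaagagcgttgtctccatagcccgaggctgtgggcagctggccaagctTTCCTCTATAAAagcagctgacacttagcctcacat
S100a9: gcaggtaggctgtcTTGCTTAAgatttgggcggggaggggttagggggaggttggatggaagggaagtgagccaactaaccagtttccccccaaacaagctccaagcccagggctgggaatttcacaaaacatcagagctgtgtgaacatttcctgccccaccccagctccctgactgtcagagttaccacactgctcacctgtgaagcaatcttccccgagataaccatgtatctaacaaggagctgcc
S100a1-S100a13: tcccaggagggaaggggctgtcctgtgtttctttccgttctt

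C/EBP and PU.1 are transcription factors of the myeloid lineage. The S100a8 sequence held 2 matches to the PU.1 core, the nearer one joined to a TATA box that begins at base -30 from the RefSeq start. The annotation used for gene bodies and exon lengths starts S100a8 earlier, at 90668978. By that annotation the nearer PU.1 match and the TATA box lie within the gene body. The S100a9 sequence held 1 match to the C/EBP core, beginning at base -236, and in S100a9 the TATA box letters begin at base 1 of the transcript as RefSeq gives it. Over the 300-base windows of the 7 members, the PU.1 core occurred in 3, against 28.3% of all 32851 windows. The TATA box occurred in 3, against 13.6% of all windows, and the C/EBP core in 1, against 10.8%. The GATA factor core AGATAA occurred in the windows of 2 members and in 11.2% of all windows. The AP-1 site, taken as TGANTCA, occurred in that of S100a11 and in 7.81% of all windows. The word bound by the first zinc finger domain of EVI1, GACAAGATA, was in 0 members' windows and in 0.119% of all. The word of its second domain, taken here as GAAGATGAG, was also in 0 of them and in 0.399% of all. The PU.1 and TATA box matches of S100a8 adjoin without overlap. These matches are letters in a short window and say nothing about binding.

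Calprotectin genes were the most abundant members and stood lowest in EVI1+18 relative to EVI1-WT. S100a9 (ENSMUSG00000056071, chromosome 3 from 90692632 to 90695721 on the minus strand) showed 10096 counts in EVI1+18 and 27442 in EVI1-WT. Scaled to CPM (counts for every 1000000 of the library) with edgeR's TMM factors, these were 471 and 1370.2 CPM, so the EVI1+18 level was 2.91-fold lower, with a 95% counting interval of 2.85 to 2.98. S100a8 (ENSMUSG00000056054, 90668978 to 90670035 on the plus strand) showed 7568 counts in EVI1+18 and 19925 in EVI1-WT, or 353 and 995 scaled CPM. Its level was 2.82-fold lower (2.75 to 2.90). The intervals here take in nothing but counting error, and sequencing reads that carry no molecular identifier can be copies of 1 molecule. In RNA from whole colonies, fewer cells of a type and less RNA per cell cannot be told apart.

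S100a8 and S100a9, which are transcribed from opposite strands with 22.6 kb between them, kept close to a fixed proportion. Per base of exon, S100a9 stood 1.77 times as high as S100a8 in EVI1+18 (1.72 to 1.83) and 1.83 times as high in EVI1-WT (1.80 to 1.86). The change of that proportion between libraries was 0.969, with an interval of 0.935 to 1.003 that includes 1. With the longest transcript of each gene in place of all exons, the proportion was 1.28 in EVI1+18 and 1.32 in EVI1-WT. Together the pair had 823 scaled CPM in EVI1+18 and 2365 in EVI1-WT, a level 2.87-fold lower (2.82 to 2.92). Per kilobase of exon, S100a9 ranked 53 in EVI1+18 and 15 in EVI1-WT among the tested genes, and S100a8 ranked 116 in EVI1+18 and 24 in EVI1-WT.

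**Figure D1:**
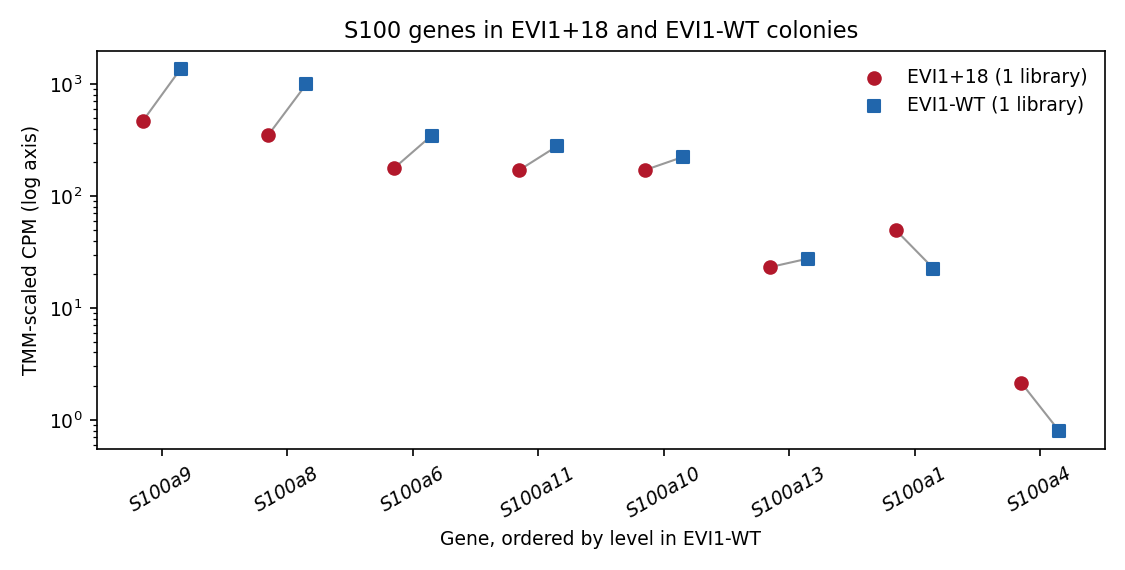
Scaled CPM of the 8 S100 genes on a log axis, ordered by their level in EVI1-WT, with EVI1+18 as circles and EVI1-WT as squares and 1 library behind each point. The points of S100a9 (471 and 1370.2) and S100a8 (353 and 995) are furthest apart among the abundant genes, while S100a1 and S100a4 run the other way.

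The call rule asked that the entire counting interval lie beyond 2-fold. It was applied to 13183 genes, those that reached 1 scaled CPM in either library, and only these are called tested. By this rule S100a8 and S100a9 were called lower, 2 of 8 members, and 672 of all genes tested (5.10%) were called lower. Of the members, 0 were called higher, against 5.05% of all genes tested. Among the 2465 genes that reached 100 scaled CPM in a library, where counting error is small, 5.52% were called lower and 3.16% higher. With a rule of 1.5-fold, S100a6 and S100a11 were called lower too, 4 of 8 members beside 9.79% of all genes tested, and S100a1 was called higher, 1 of 8 beside 8.29%. The median log2 ratio of the 8 members was -0.55 and that of all genes tested 0.01. S100a4 passed the filter only through EVI1+18, where it was higher, and without it the median was -0.71. These figures describe the list, and the rule says nothing of the list as a whole.

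**Figure D2:**
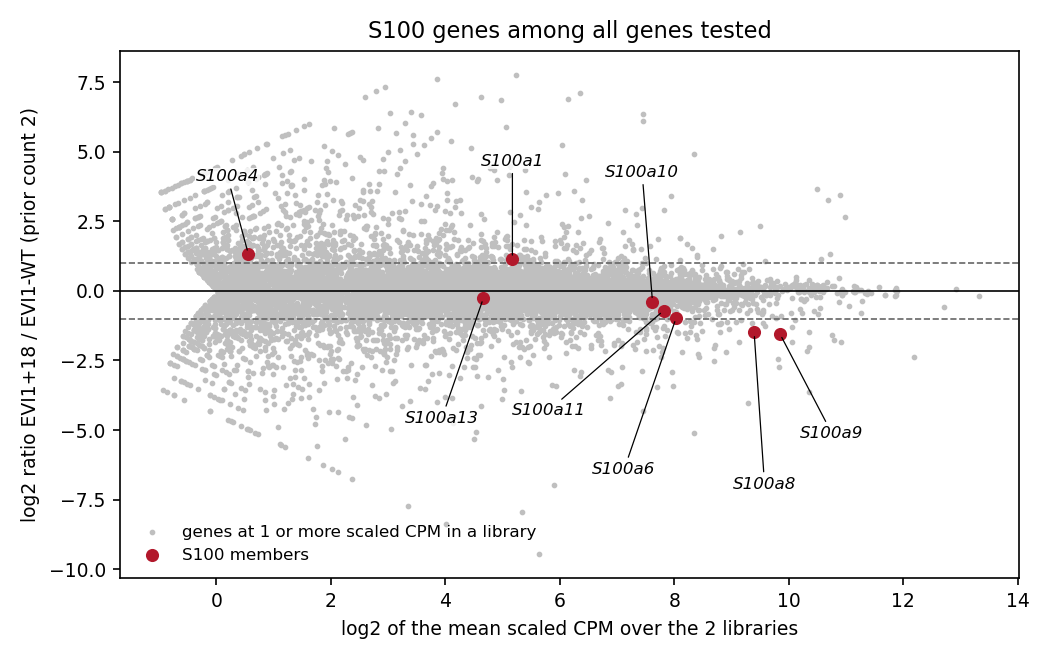
Log2 ratio of EVI1+18 over EVI1-WT (prior count of 2) against the log2 of the mean scaled CPM, for the 13183 genes tested in grey and the 8 S100 genes in red, with dashed lines at 2-fold. S100a8 (-1.50) and S100a9 (-1.54) lie below the lower line at the abundant end, and S100a1 (1.14) and S100a4 (1.32) above the upper one.

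The members that bind annexins were lower by smaller factors. S100a6 (calcyclin, raised in proliferating cells; ENSMUSG00000001025; 90612882 to 90624181, plus strand) had 3808 counts in EVI1+18 and 6944 in EVI1-WT, or 177 and 347 scaled CPM. It was 1.95-fold lower, and its interval (1.88 to 2.03) reached past 2, so it was not called. S100a11 (calgizzarin, a partner of annexins A1 and A2; ENSMUSG00000027907; 93520488 to 93526287, plus strand) had 3664 counts in EVI1+18 and 5593 in EVI1-WT, or 171 and 279 scaled CPM, and was 1.64-fold lower (1.57 to 1.71). S100a10 (p11; ENSMUSG00000041959; 93555080 to 93564643, plus strand) had 3658 counts in EVI1+18 and 4465 in EVI1-WT, or 170.5 and 223 scaled CPM, and was 1.31-fold lower (1.25 to 1.37). S100a11 and S100a10 are 28.8 kb apart, yet their proportion differed between the libraries by a factor of 0.800 (0.753 to 0.849). Of the 50-base words in S100a11, 41.1% also occur in processed pseudogenes, and these had at most 35 counts in EVI1+18 and 39 in EVI1-WT. Reads from such words may be missing from the S100a11 count in either library.

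S100a1 ran the opposite way to its closest neighbour. S100a1, best known from heart and skeletal muscle where it binds the calcium release channel (ENSMUSG00000044080; 90511034 to 90514392, minus strand), had 1064 counts in EVI1+18 and 451 in EVI1-WT. Its level was 49.6 scaled CPM in EVI1+18 and 22.5 in EVI1-WT, which is 2.20-fold higher. The interval, 1.97 to 2.46, just failed the rule. S100a13, which takes part in the release of FGF1 and interleukin 1 alpha from cells (ENSMUSG00000042312; 90514435 to 90524581, plus strand), had 497 counts in EVI1+18 and 553 in EVI1-WT. Its level was 23.2 scaled CPM in EVI1+18 and 27.6 in EVI1-WT, which is 1.19-fold lower (1.05 to 1.35). The bodies of these genes point away from each other and share no exon, and 0% of the 50-base words of either occur in another annotated gene. The proportion of S100a13 to S100a1 was 0.453 per exon base in EVI1+18 and 1.19 in EVI1-WT, which differ by a factor of 0.381 (0.323 to 0.449). S100a1 was therefore the more abundant of the pair in EVI1+18 and S100a13 in EVI1-WT. Their RefSeq windows overlap and are rich in CpG, with 11 CpG in that of S100a1 and 14 in that of S100a13, where the median window has 7.

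S100a4 (metastasin, which binds non-muscle myosin; ENSMUSG00000001020; 90603771 to 90606045, plus strand) was close to the limit of detection. It had 46 counts in EVI1+18 and 16 in EVI1-WT, or 2.14 and 0.799 scaled CPM. The ratio was 2.68 with an interval of 1.49 to 5.08. In the annotation, 302 of its 584 exon bases are shared on the same strand with the predicted gene Gm42674, which had 0 counts in both libraries. Whether reads in shared exons were left out is not given in the sources used here, so the level may be too low in both libraries.

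**Figure D3:**
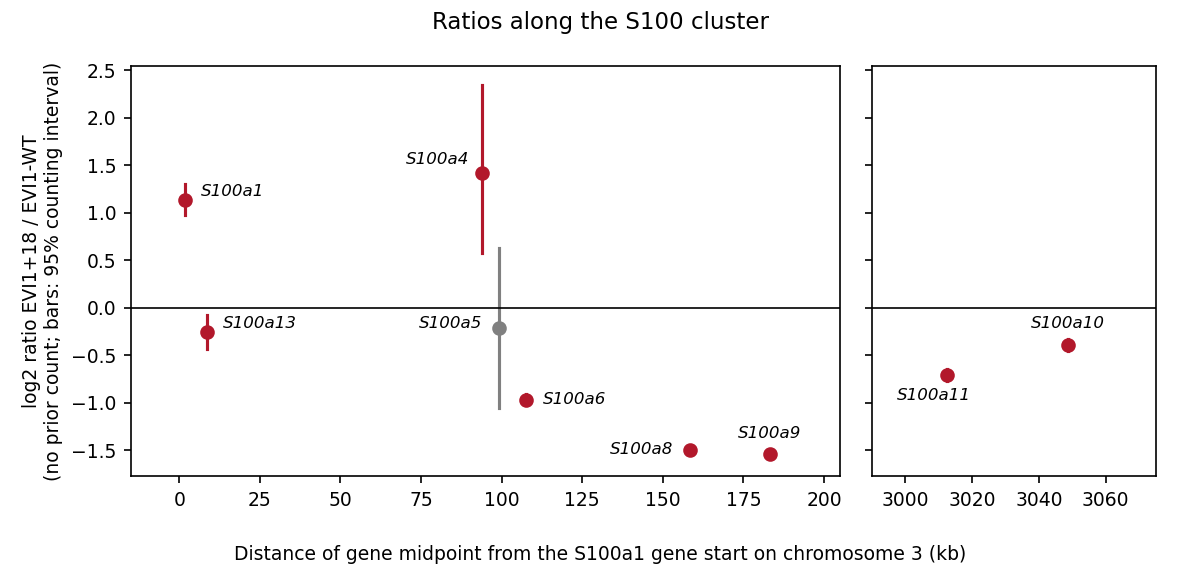
Log2 ratio of EVI1+18 over EVI1-WT, without a prior count, against the distance of each gene's midpoint from the start of S100a1 in kb, with 95% counting intervals as bars, members in red and S100a5 in grey. The ratios of S100a1 (2.20) and S100a4 (2.68) lie above 1, those of their neighbours such as S100a13 (0.839) and S100a6 (0.512) below it, and that of S100a9 (0.343) is the lowest.

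Members differed from one another more than counting error allows. Of the 28 pairs of members, the proportion of 1 gene to the other differed between the libraries beyond its 95% counting interval in 25. The pairs reuse the same members, so they are not independent of each other. Whether pairs of other genes differ as often was not tested, so the 25 are not shown to be a trait of this family. The pairs whose interval included 1 were S100a9 with S100a8, S100a13 with S100a10 (1.10, 0.964 to 1.25) and S100a4 with S100a1 (1.22, 0.669 to 2.33). The last interval is wide and leaves room for a difference of over 2-fold. By level per kilobase of exon, the order in EVI1+18 was S100a9 (901), S100a8 (508), S100a11 (334), S100a10 (141), S100a6 (129.8), S100a1 (71.5), S100a13 (32.4) and S100a4 (3.67). In EVI1-WT it was S100a9 (2625), S100a8 (1434), S100a11 (547), S100a6 (254), S100a10 (184), S100a13 (38.6), S100a1 (32.4) and S100a4 (1.37). The orders differ in the exchange of S100a6 with S100a10 and of S100a1 with S100a13. The smallest steps between neighbours were 1.08 for S100a10 over S100a6 in EVI1+18 (1.04 to 1.13) and 1.19 for S100a13 over S100a1 in EVI1-WT (1.05 to 1.35). All neighbours differed beyond counting error, also with the longest transcript as the length. These intervals leave out reads that may be missing from words shared with other genes, 41.1% of those of S100a11 and 47.4% of those of S100a4. The levels of S100a11 and S100a4, and with them the place of S100a11 in either order, may therefore be too low.

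The members together took a smaller part of the counts in EVI1+18. They held 30401 counts in EVI1+18, 0.145% of the library (exact interval 0.143 to 0.147%), and 65389 in EVI1-WT, 0.319% (0.317 to 0.322%). After scaling, the sum was 2.30-fold lower in EVI1+18 (2.27 to 2.34). S100a8 and S100a9 made up 58.1% of the members' counts in EVI1+18 (57.5 to 58.7%) and 72.4% in EVI1-WT (72.1 to 72.8%). The other 6 members were 1.52-fold lower in sum (1.48 to 1.55), so most of the difference in the total lay in the calprotectin genes. S100a1 made up 3.50% in EVI1+18 (3.30 to 3.71%) and 0.690% in EVI1-WT (0.628 to 0.756%).

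**Figure D4:**
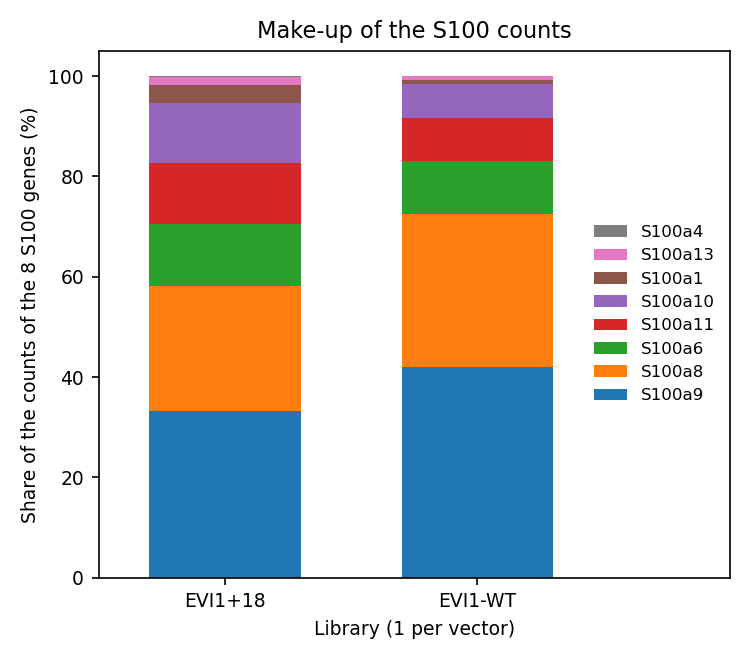
Share of the summed counts of the 8 S100 genes held by each gene, in percent, with EVI1+18 on the left and EVI1-WT on the right and 1 library behind each bar. S100a9 and S100a8, at the base, make up 58.1% in EVI1+18 and 72.4% in EVI1-WT.

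The rest of the family was nearly silent. The annotation holds 17 S100 genes of this naming, 14 of them on chromosome 3, and 9 are not among the members. Of those 9, S100a5 alone reached 1 scaled CPM, with 25 counts in EVI1+18 and 27 in EVI1-WT, a ratio of 0.864 (0.481 to 1.55). The other 8, S100a2, S100a3, S100a7a, S100a14, S100a16, S100b, S100g and S100z, had at most 5 counts in a library, and 3 of them had 0 in both. A count of 0 allows up to 0.140 scaled CPM in EVI1+18 and 0.150 in EVI1-WT. Between the outermost members, 113 other genes are annotated, many of them genes of the skin barrier, and 4 were tested, with 0 called. S100a5 was one, and the others were Gm9774, involucrin (Ivl, 1.57-fold lower, 1.19 to 2.06) and the pseudogene Gm4202.

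Among the annexins, the membrane-binding partners of S100A6, S100A10 and S100A11, 3 of 8 were called lower and 0 higher. Their median log2 ratio was -0.86. For this and each later list, the shares over all genes tested were 5.10% called lower and 5.05% called higher. Anxa6 had 85.1 scaled CPM in EVI1+18 and 238 in EVI1-WT, 2.79-fold lower (2.65 to 2.95). Anxa11, a partner of S100A6, had 128 in EVI1+18 and 344 in EVI1-WT, 2.68-fold lower (2.57 to 2.81). Anxa2, the partner of S100A10, had 200.1 in EVI1+18 and 423 in EVI1-WT, 2.11-fold lower (2.04 to 2.19). S100a10 was lower by less than Anxa2, and per exon base its proportion to Anxa2 was 2.62 in EVI1+18 and 1.62 in EVI1-WT, a factor of 1.62 (1.53 to 1.71). By contrast, the proportion of S100a11 to Anxa1 was 4.18 in EVI1+18 and 4.36 in EVI1-WT, a factor of 0.958 whose interval included 1 (0.907 to 1.01). Anxa3 was 2.10-fold lower (1.95 to 2.26), Anxa1 1.57-fold (1.51 to 1.62) and Anxa7 1.11-fold (1.05 to 1.17). Anxa4 stood 1.14-fold higher (1.08 to 1.20) and Anxa5, the phosphatidylserine binder used to stain dying cells, 1.57-fold higher (1.5 to 1.65).

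Of the 10 receptors and surface partners of released S100 proteins, 2 were called lower and 0 higher. Their median log2 ratio was -0.37. Tlr4, the endotoxin receptor through which S100A8 and S100A9 signal, was at 33.5 scaled CPM in EVI1+18 and 38.4 in EVI1-WT, 1.15-fold lower (1.04 to 1.27). Its helpers stood further apart, with Cd14 2.30-fold lower (1.96 to 2.69) and Ly96, which encodes MD-2, 2.53-fold lower on 33 counts in EVI1+18 and 78 in EVI1-WT (1.67 to 3.93). Ager, which encodes the receptor RAGE, had 30 counts in EVI1+18 and 32 in EVI1-WT, a ratio of 0.875 (0.514 to 1.49). The genes called lower were Cd69, an early activation marker, at 2.53-fold (2.31 to 2.76), and embigin (Emb) at 2.16-fold (2.08 to 2.24). The related basigin (Bsg) and neuroplastin (Nptn), surface glycoproteins that bind S100A9 and S100A8, were 1.24-fold (1.20 to 1.28) and 1.35-fold lower (1.28 to 1.42). Alcam had a ratio of 1.08 (0.954 to 1.21), and the fatty acid receptor Cd36 was 2.41-fold higher (1.70 to 3.47) on 119 counts in EVI1+18 and 46 in EVI1-WT.

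**Figure D5:**
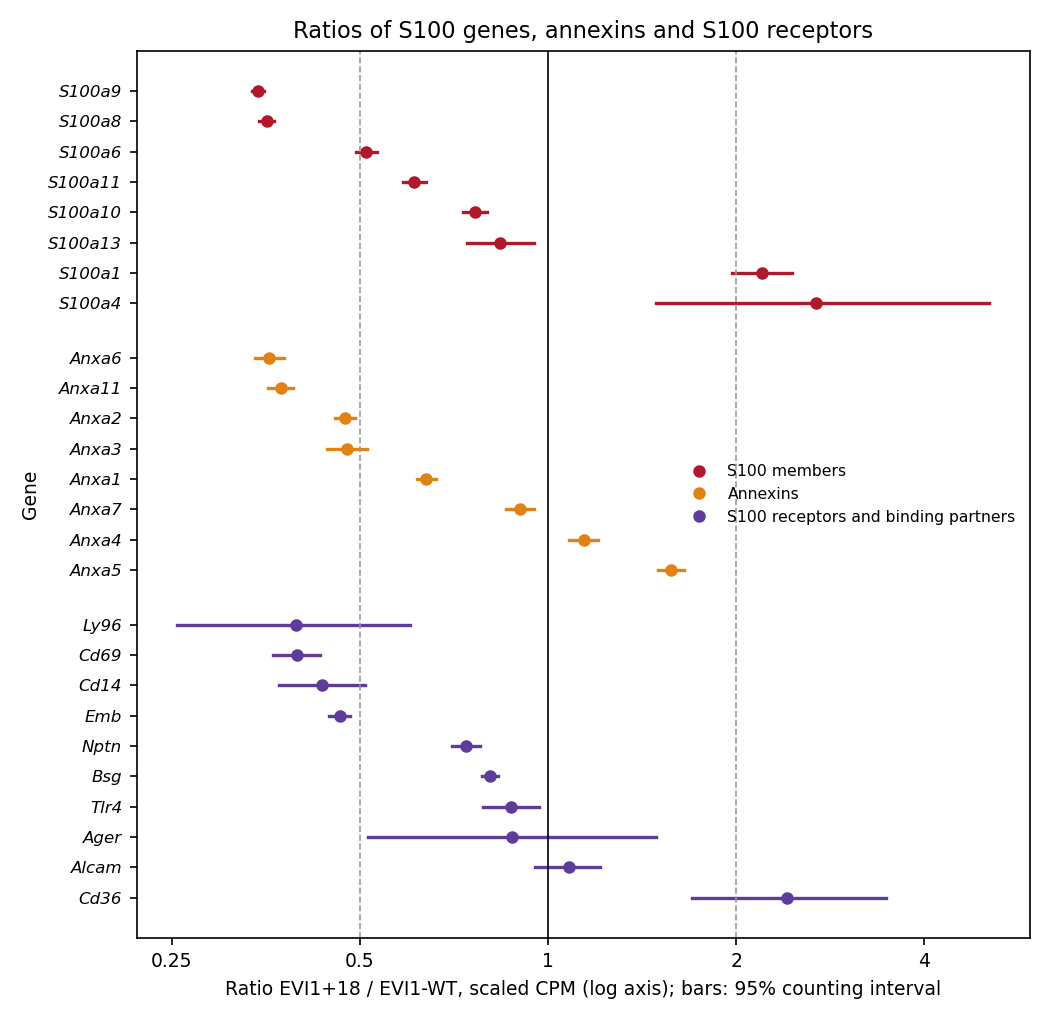
Ratio of EVI1+18 over EVI1-WT in scaled CPM on a log axis, with 95% counting intervals as bars, for the 8 S100 genes, 8 annexins and 10 receptors and surface partners, with dashed lines at 2-fold in either direction. S100a9 (0.343), S100a8 (0.355), Anxa6 (0.358) and Anxa11 (0.373) lie left of the lower line, and S100a1 (2.20), S100a4 (2.68) and Cd36 (2.41) right of the upper one by their point values.

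Intracellular partners of the family had a median log2 ratio of -0.14, with values from -0.53 to 0.21. Of these 10, 0 were called, beside 5.10% of all genes tested called lower and 5.05% higher. At those shares a list of this size can easily hold 0, so this is not shown to be a trait of these partners. Myh9, the non-muscle myosin heavy chain bound by S100A4, was at 1733 scaled CPM in EVI1+18 and 2507 in EVI1-WT, 1.45-fold lower (1.43 to 1.47), while Cacybp, the calcyclin-binding protein named for S100A6, was 1.13-fold lower (1.07 to 1.19). Vim was 1.39-fold lower (1.36 to 1.43), Dlg4 1.37-fold lower (1.23 to 1.52) and the light chain Myl6 1.16-fold higher (1.13 to 1.19). The plasminogen system, which S100A10 and annexin A2 help to assemble on the cell surface, had 6 of 9 genes tested. All 6 were lower in EVI1+18, 1 of them by the call rule, and their median log2 ratio was -0.74. The urokinase receptor Plaur was 2.07-fold lower (1.91 to 2.24), which did not meet the call rule. Plasminogen and its tissue activator Plat had at most 1 count in a library. Of the 3 genes linked to export by S100A13, only Il1a was tested, with 99 counts in EVI1+18 and 46 in EVI1-WT, 2.01-fold higher (1.40 to 2.92).

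EF-hand proteins outside the family gave a comparison by calcium sensor type. Of 17, 13 were tested, and the median log2 ratio was -0.04. Of these, 1 was called higher and 0 lower, beside 5.05% and 5.10% of all genes tested. Of the calmodulin genes reported here, Calm2 was 1.18-fold higher (1.14 to 1.23) and Calm3 1.10-fold lower (1.07 to 1.14). Tesc, which encodes tescalcin, was 3.29-fold higher (2.28 to 4.85) on 134 counts in EVI1+18 and 38 in EVI1-WT. The leukocyte actin bundler Lcp1 was 1.77-fold lower (1.74 to 1.80), Swap70 1.48-fold lower (1.40 to 1.57) and Pef1 1.42-fold higher (1.32 to 1.54).

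Genes of transcription factors that act on the calprotectin genes, or in the lineages that express them, had a median log2 ratio of -0.28. Of these 10, 1 was called higher and 2 lower. The granulocyte factor Cebpe was at 15.6 scaled CPM in EVI1+18 and 62.9 in EVI1-WT, 4.03-fold lower (3.57 to 4.56), and the hypoxia factor Hif1a was 2.17-fold lower (2.07 to 2.27). Cebpa was 1.43-fold lower (1.34 to 1.52), and Spi1, which encodes PU.1, was 1.20-fold lower (1.15 to 1.26). Cebpb was 1.13-fold lower (1.08 to 1.19), and Cebpd, with a ratio of 0.974, did not differ beyond counting error (0.842 to 1.13). Klf4 was 7.28-fold higher (2.87 to 23.7) on 39 counts in EVI1+18 and 5 in EVI1-WT, and it passed the filter only through EVI1+18, where it was higher.

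Markers of the cell types that could be present moved with the calprotectin genes and against them, and their part in the S100 differences was not tested. Of 15 mature neutrophil genes 14 were tested, 8 called lower and 0 higher, and their summed level was 693 scaled CPM in EVI1+18 and 2502 in EVI1-WT. The surface marker Ly6g was 16.8-fold lower (12.0 to 24.4) and the granule protein gene Ngp 4.35-fold lower (4.11 to 4.59), but Csf3r, the receptor for the neutrophil growth factor, was 1.59-fold higher (1.36 to 1.86). The late neutrophil gene Retnlg had 6 counts in EVI1+18 and 5 in EVI1-WT, and Mmp9 had 40 in EVI1+18 and 13 in EVI1-WT. Of 6 primary granule and promyelocyte genes, 2 were called lower and 0 higher, at 1353 in EVI1+18 and 1644 in EVI1-WT in sum.

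Of 12 monocyte and macrophage genes 9 were tested, 3 called higher and 2 lower. Their sum was 2891 scaled CPM in EVI1+18 and 2005 in EVI1-WT, but lysozyme (Lyz2) alone had 2397 in EVI1+18 and 967 in EVI1-WT, 2.48-fold higher (2.44 to 2.52). Without it the sum was 494 in EVI1+18 and 1038 in EVI1-WT, 2.10-fold lower. No other marker list was summed without its most abundant gene. Much of that difference lay in Ly6c2, a monocyte marker, which had 101 in EVI1+18 and 463 in EVI1-WT, 4.58-fold lower (4.37 to 4.80). Less abundant genes of the list went the other way. Mertk was 10.5-fold higher (5.11 to 25.1) on 90 counts in EVI1+18 and 8 in EVI1-WT. Fcgr1 was 9.24-fold higher (5.89 to 15.3) on 208 counts in EVI1+18 and 21 in EVI1-WT, and Csf1r was 1.91-fold higher (1.72 to 2.12). Of the 9 tested genes, 5 were lower and 4 higher in EVI1+18, with a median log2 ratio of -0.32. C1qa had 0 counts in both libraries. Of 12 mast cell and basophil genes 10 were tested, 7 called lower and 2 higher, with sums of 1962 in EVI1+18 and 12421 in EVI1-WT, and Tpsab1 had 0 counts in both. Of 7 eosinophil genes 4 were tested, 3 called lower and 1 higher, with sums of 171 in EVI1+18 and 849 in EVI1-WT. Of 12 erythroid genes 10 were called higher and 0 lower, with sums of 13612 in EVI1+18 and 1791 in EVI1-WT. Of 10 megakaryocyte and platelet genes 9 were tested, 7 called higher and 0 lower. Their sums were 1479 in EVI1+18 and 574 in EVI1-WT, and Tubb1 and Gp1bb had 0 counts in EVI1-WT. As with Lyz2, the sum of any of these marker lists can rest largely on 1 abundant gene, so it is not the level of a whole lineage. Of the genes called higher, 3 megakaryocyte and platelet genes, 1 erythroid gene (Car1) and 1 monocyte and macrophage gene (Mertk) passed the filter only through EVI1+18, and of the neutrophil genes called lower, 1 (Ceacam10) passed only through EVI1-WT.

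With 2 libraries a gene's pattern is a single ratio, so likeness to S100a8 is only a nearness in log2 ratio. Among 2170 named genes of at least 100 scaled CPM in EVI1-WT, 21 lay within 0.1 of S100a8 on the log2 scale. The nearest 5 were the kinase gene Jak2 (2.82-fold lower), the surface receptor gene Cd93 (2.81-fold), transferrin (Trf, 2.82-fold), the glycosyltransferase gene Galnt6 (2.83-fold) and Perp (2.84-fold). The furthest of these lay 0.0071 from the log2 ratio of S100a8.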

How the data were processed

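RNA-seq of 1 library per vector was analysed. The table holds counts that the authors deposited as whole numbers for each Ensembl ID, not normalized. The submitters' processing notes name the build GRCm38 and the tools edgeR, Subread, featureCounts, SAMtools and HISAT2 (2.2.1). Not given in the sources used here are the tools' settings, including strand, annotation and the handling of reads that match several places or overlap several genes. Columns were mapped by name (0 left unmapped). Symbols, exon lengths and coordinates came from GENCODE M21 (GRCm38), which held 55227 of the 55487 IDs. Promoter windows came from RefSeq (GRCm38.p6).

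Libraries were scaled with edgeR 4.0.16 TMM (R 4.3.3). With 1 library per group edgeR's quasi-likelihood test has no residual degrees of freedom. Ratios of EVI1+18 over EVI1-WT were given exact (Clopper-Pearson) 95% counting intervals in scipy 1.17.1, and proportions between genes odds ratio intervals. Log2 ratios used a prior count of 2. A count of 0 allows 3 counts.

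The members and gene lists were chosen with earlier results of these data known. All members were named. So were other S100 genes at 1 scaled CPM or more, all tested annexins and receptors, up to 4 genes per other list by the interval bound nearest to 1 and 1 in the other direction, tested genes between the members, and the 5 genes nearest S100a8 in log2 ratio. Some genes the rule takes are not given, and a few list members were named after their values were seen. DESeq2 1.42.0 size factors, upper-quartile factors, library totals, other filters, call rules and lengths were the alternatives.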

Additional observations from a re-analysis of the deposited data

How the results depend on the processing

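Of 47 alternative values, 32 stayed within the counting interval or within 1.5 times the count, 15 moved and 0 reversed. Scaling by library totals, which shifts the median log2 ratio of all genes tested to 0.075 (0.011 with TMM), gave ratios of 0.535 for S100a6, 0.371 for S100a8, 0.359 for S100a9, 0.800 for S100a10 and 0.639 for S100a11, and a members' median of -0.48. The count of members called higher was 0 in the main analysis and 1 (S100a1) with DESeq2 size factors, with library totals or with the interval past 1.5-fold, and 2 (S100a1 and S100a4) by the point ratio. At 1.5-fold 4 members were called lower (S100a6, S100a8, S100a9 and S100a11). S100a8 and S100a9 were called lower under all alternatives run. The median was -0.71 with a filter at 5 scaled CPM, which removes S100a4, and -0.71 without S100a4, an alternative chosen after seeing the data. With the longest transcript as length, S100a9 over S100a8 was 1.28 in EVI1+18 and 1.32 in EVI1-WT. No paired analysis was possible because each group has 1 library, and none could be left out. Depth limits S100a4 and S100a5, with 46 counts or fewer in each library.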
